A study of Mus musculus with 8 samples.

Results

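The subject was the 10 genes of the NF-kappaB core measured in CD8 single-positive (CD8SP) thymocytes, namely the 5 subunits Nfkb1, Nfkb2, Rel, Rela and Relb and the 5 feedback inhibitors Nfkbia, Nfkbid, Nfkbie, Bcl3 and Tnfaip3. They are listed by name and function and made up 10 of the 47937 genes in the counts table. All 10 had enough reads to be tested, among 14633 tested genes. CD8SP TCRb+ MHC-I high cells were sorted from the thymus of mice 6 to 7 weeks old and their total RNA was sequenced, with 4 libraries from Ndrg3 +/fl;Lck-cre+ mice (Ndrg3ctrl) and 4 from Ndrg3 fl/fl;Lck-cre+ mice (Ndrg3TKO). Both groups carried the Lck-cre transgene, in which the Lck promoter drives Cre recombinase in T lineage cells, so the controls were not free of Cre and had 1 floxed Ndrg3 allele of their own. The comparison asks which RNAs of maturing CD8SP cells differ when the remaining wild-type copy of Ndrg3, an N-myc downstream-regulated gene family member, is floxed too.

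NF-kappaB is a family of dimeric transcription factors. In resting cells the dimers are held in the cytoplasm by IkappaB proteins, and signals from the T cell receptor or from receptors of the tumor necrosis factor family lead to phosphorylation and degradation of the IkappaB proteins, which frees the dimers to enter the nucleus. Many inhibitors of the pathway are themselves NF-kappaB targets, so their RNAs rise after activation and close a negative feedback loop. In the thymus, NF-kappaB activity is known for its part in the survival and functional maturation of single-positive cells, and for the development of regulatory and unconventional T cells.

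Since feedback in this pathway runs through promoter sequence, the promoters of the members were searched for a kappaB-type motif, GGGANNNNCC, on both strands of the 250 bases before each RefSeq transcription start (GRCm38.p6). Promoter sequences for 8 of the 10 members were in the table used here (those of Nfkb1 and Relb were not analysed here), 13 in all because several genes have more than 1 start and neighboring windows of a gene can share bases. The motif occurred in 9 of these 13 promoters, beside 17.6% of all 32851 mouse promoters. Counted by gene, for which no share over all genes was taken, it occurred in 6 of these 8 (Nfkb2, Rel, Rela, Nfkbia, Nfkbid and Tnfaip3). The stricter kappaB consensus, which can fall on the same bases as the open motif, occurred in 8 of the 13, beside 3.90% of all promoters. Its matches are not all matches of the open motif, since it also allows G where the open motif has A. Nfkbie had a match to the consensus only, and Rela to the open motif only. A match describes letters in a window and does not show that a factor binds there. The promoter of Nfkbia (chr12:55492648-55492897, minus strand) is printed as the inhibitor with the most reads among the 5, that of Rel (chr11:23770970-23771219, minus strand) as a subunit with a motif that reads as one on both strands, and that of Birc3 (chr9:7873171-7873420, minus strand) because Birc3 was the 1 target gene past the test described further on. Each is written 5′ to 3′ on the strand of the gene, and capitals mark the open motif in either orientation.

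Nfkbia: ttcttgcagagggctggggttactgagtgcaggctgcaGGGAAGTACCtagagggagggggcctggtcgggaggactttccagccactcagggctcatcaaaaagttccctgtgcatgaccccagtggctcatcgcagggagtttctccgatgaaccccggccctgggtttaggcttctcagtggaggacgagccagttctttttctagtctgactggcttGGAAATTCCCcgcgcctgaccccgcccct
Rel: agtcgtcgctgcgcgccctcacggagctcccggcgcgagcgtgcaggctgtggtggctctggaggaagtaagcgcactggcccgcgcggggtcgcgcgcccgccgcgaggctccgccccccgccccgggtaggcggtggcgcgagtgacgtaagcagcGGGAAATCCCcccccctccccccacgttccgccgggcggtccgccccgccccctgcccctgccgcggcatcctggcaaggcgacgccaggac
Birc3: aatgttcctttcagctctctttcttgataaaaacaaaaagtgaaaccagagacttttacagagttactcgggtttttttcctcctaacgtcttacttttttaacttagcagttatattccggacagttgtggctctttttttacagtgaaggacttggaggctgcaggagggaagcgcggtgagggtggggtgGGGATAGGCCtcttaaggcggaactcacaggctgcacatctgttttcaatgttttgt

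In the Nfkbia promoter the marked stretches began 212 and 29 bases before the start, in Rel 92 bases before it and in Birc3 57 bases before it. The printed Birc3 promoter held no match to the stricter consensus. Il18r1, the receptor gene past the same test, had neither motif in any of its promoters.

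Counts were deposited without normalization. Values are given as CPM, the counts brought to a common library total after scaling by the TMM method, and totals ran from 21126698 to 32668081 reads. At these totals each member had between 938 and 10962 reads in every library, far above the floor of 3 reads, which was 0.0918 to 0.142 CPM. Ndrg3 itself, counted over the whole gene and not over the floxed exon alone, was at 79.3, 81.5, 81.2 and 80.9 CPM in Ndrg3ctrl replicates 1 to 4 and at 50.4, 48.4, 53.1 and 55.3 CPM in Ndrg3TKO replicates 1 to 4. The groups did not overlap (log2 fold change −0.64 ± 0.053 SE, edgeR adjusted p = 1.04e-05). The 9 CD8SP markers examined were all above 1 CPM in every library, and erythroid markers were at or near 0. Y-linked genes summed to 340.5 to 416 CPM in 1 of 4 Ndrg3ctrl libraries and 2 of 4 Ndrg3TKO libraries and to at most 0.0752 CPM in the others. The labels call the libraries biological replicates, and throughout n = 4 per group.

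None of the 10 members passed the test between Ndrg3ctrl and Ndrg3TKO, and their mean levels in the groups differed by little. The log2 fold changes (Ndrg3TKO over Ndrg3ctrl) lay between −0.05 for Rela and 0.06 for Nfkbid, 6 above 0 and 4 below. In the edgeR quasi-likelihood fit, with p-values adjusted over all tested genes, 0 of 10 had an adjusted p under 0.05, where 1.15% of all tested genes did, 0.793% higher and 0.355% lower in Ndrg3TKO. At an unadjusted p under 0.05 the count was also 0 of 10, beside 10.9% of all tested genes. In 0 of 10 did the libraries of the groups fail to overlap, beside 7.04% of all tested genes. With 10 members, backgrounds of this size leave room for a count of 0 or 1, so the counts alone do not set the members apart from other genes. The bounds on each difference are therefore given with its values, and positions of genes are in GRCm38.

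**Figure D1:**
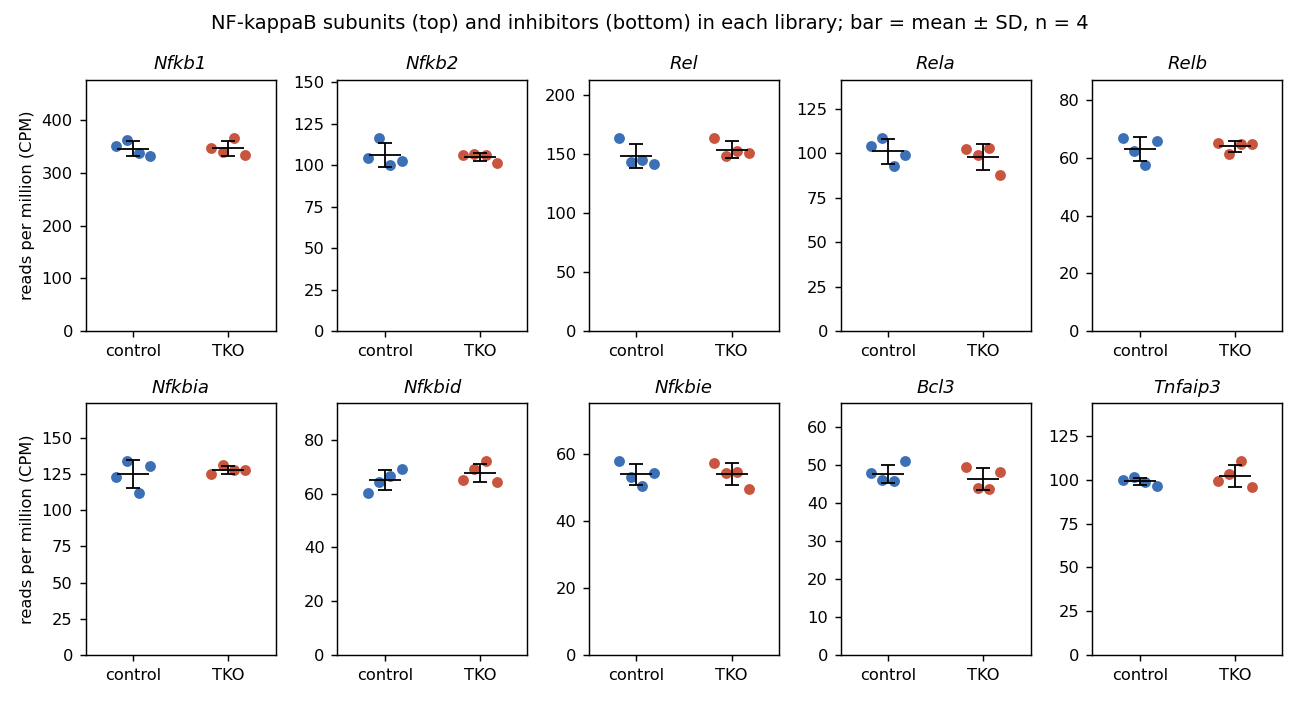
CPM (y axis, from 0) of the 5 NF-kappaB subunits in the top row and the 5 inhibitors in the bottom row, in Ndrg3ctrl (blue, labeled control) and Ndrg3TKO (red, labeled TKO); points are the 4 libraries of a group in order of replicate number and bars are mean ± SD. In every panel the points of the groups overlap, and the means of Nfkb1 are 345 and 347 CPM.

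Nfkb1 (chr3:135584655-135691547, minus strand) encodes the p105 precursor, which is processed to the p50 subunit and lacks a transactivation domain once processed. It had the most reads of the members, with 349.9, 363, 337 and 332 CPM in Ndrg3ctrl replicates 1 to 4 and 348, 339.9, 366 and 333 CPM in Ndrg3TKO replicates 1 to 4. Highest was Ndrg3TKO replicate 3 and lowest Ndrg3ctrl replicate 4, with the groups interleaved. The log2 fold change was 0.01 ± 0.052 (SE), with a 95% interval from −0.10 to 0.12.

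Nfkb2 (chr19:46304320-46312385, plus strand) encodes p100, the precursor of p52 and the substrate of the noncanonical pathway. It was measured at 104, 117, 100.3 and 103 CPM in Ndrg3ctrl and at 106, 107, 106 and 102 CPM in Ndrg3TKO. Ndrg3ctrl replicate 2 stood above all other libraries, and the Ndrg3TKO libraries lay within the range of the controls. The difference was −0.01 ± 0.054 on the log2 scale (95% interval −0.13 to 0.10).

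Rel (chr11:23736847-23770970, minus strand) encodes c-Rel, a transactivating subunit prominent in lymphocytes. Its values were 164, 144, 145 and 141 CPM in Ndrg3ctrl and 164, 148, 152 and 151 CPM in Ndrg3TKO. Replicate 1 was the highest library of each group, and 3 of 4 Ndrg3TKO libraries were above the control mean of 148 CPM. The fold change was 0.05 ± 0.057 on the log2 scale, with an interval from −0.07 to 0.17.

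Rela (chr19:5637483-5648130, plus strand) encodes p65, which with p50 forms the most common canonical dimer. Ndrg3ctrl libraries had 104, 109, 92.5 and 99.2 CPM, and Ndrg3TKO libraries 102, 99.2, 103 and 87.5 CPM. The low library of each group, Ndrg3ctrl replicate 3 and Ndrg3TKO replicate 4, made Rela the most variable member, with a coefficient of variation of 6.75% over the 8 libraries. The log2 difference was −0.05 ± 0.064 and its interval ran from −0.18 to 0.09.

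Relb (chr7:19606217-19629438, minus strand) encodes the partner of p52 in the noncanonical pathway. It was at 66.9, 62.3, 57.5 and 65.6 CPM in Ndrg3ctrl and at 65.0, 61.2, 64.9 and 64.9 CPM in Ndrg3TKO. Both the highest and the lowest library were controls. The log2 difference was 0.02 ± 0.057 (95% interval −0.10 to 0.14).

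Among the inhibitors, Nfkbia (chr12:55489410-55492647, minus strand) encodes IkappaBalpha, the inhibitor that is degraded and resynthesized fastest after activation. Ndrg3ctrl replicates 1 to 4 had 123, 134, 112 and 130.5 CPM, and Ndrg3TKO replicates 1 to 4 had 125, 131, 128 and 128 CPM. The Ndrg3TKO libraries lay closer together (SD 2.59 CPM) than the controls (SD 9.55 CPM) and inside their range, and all 4 were above the control mean. The difference was 0.04 ± 0.057 on the log2 scale, with an interval from −0.09 to 0.16.

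Nfkbie (chr17:45555703-45563169, plus strand) encodes IkappaBepsilon, a cytoplasmic inhibitor of p65 and c-Rel dimers. It was measured at 57.9, 53.1, 50.6 and 54.5 CPM in Ndrg3ctrl and at 57.5, 54.3, 54.7 and 49.6 CPM in Ndrg3TKO. The group means were equal at this precision, 54.0 ± 3.04 and 54.0 ± 3.26 CPM (SD). Around that equal mean the interval of the log2 difference still allowed −0.13 to 0.13.

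Nfkbid (chr7:30421732-30428746, plus strand) encodes IkappaBNS and Bcl3 (chr7:19808462-19822770, minus strand) encodes BCL-3, atypical IkappaB proteins that act in the nucleus on p50 and p52 dimers. Nfkbid had 60.2, 64.3, 66.4 and 68.9 CPM in Ndrg3ctrl and 65.1, 68.9, 71.9 and 64.4 CPM in Ndrg3TKO. Its difference was the largest of the members, 0.06 ± 0.057 on the log2 scale (95% interval −0.07 to 0.18), and it had the smallest p (edgeR adjusted p = 0.772). Ndrg3ctrl replicate 1 was its lowest library and Ndrg3TKO replicate 3 its highest.

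Bcl3, the member with the fewest reads, was at 47.9, 46.1, 45.8 and 50.9 CPM in Ndrg3ctrl and at 49.4, 44.1, 43.7 and 48.2 CPM in Ndrg3TKO. Within Ndrg3TKO, replicates 2 and 3 were below every control and replicates 1 and 4 within the control range. The log2 difference was −0.04 ± 0.061, with an interval from −0.17 to 0.09. An annotated antisense gene, Gm16175, shares 161 exonic bases with Bcl3 and had no reads in any library.

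Tnfaip3 (chr10:19000910-19015657, minus strand) encodes A20, a ubiquitin-editing enzyme that restrains signaling upstream of the IkappaB kinase. Controls were close together at 100.1, 102, 98.6 and 96.7 CPM, and Ndrg3TKO libraries were at 99.5, 103, 111 and 95.8 CPM. Both the highest library (replicate 3) and the lowest (replicate 4) were Ndrg3TKO. The difference was 0.04 ± 0.052 on the log2 scale (95% interval −0.07 to 0.16).

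**Figure D2:**
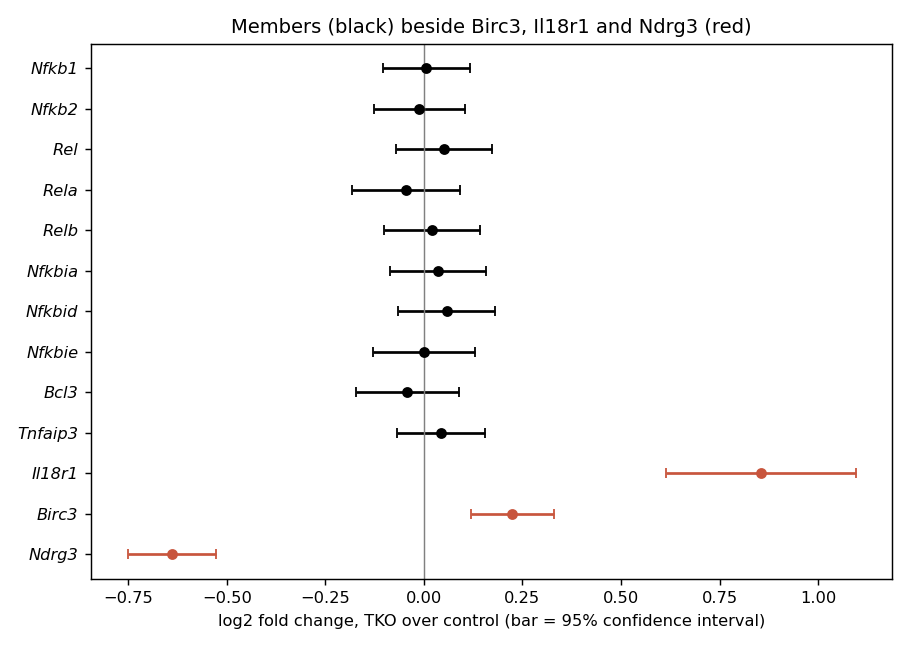
Log2 fold change of Ndrg3TKO over Ndrg3ctrl (x axis) with 95% confidence intervals from the edgeR fit, for the 10 members (black) and for Il18r1, Birc3 and Ndrg3 (red), n = 4 per group. Every interval of a member spans 0 and lies between −0.18 and 0.18, while that of Ndrg3 lies below 0 and those of Il18r1 and Birc3 lie above it.

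Written as percent of the control level, the intervals of the members together ran from −11.8% (the lower bound of Rela) to 13.3% (the upper bound of Nfkbid). For each member, a true difference anywhere inside its own interval remains possible with 4 libraries a group. The bounds are not a limit of detection. The median size of the 10 differences without sign was 0.04 on the log2 scale, beside 0.09 over all tested genes. Precision differed in the same direction, with a median SE of 0.057 in the members and 0.092 in all tested genes, many of which had fewer reads. Of all tested genes, 35.0% had a difference no larger in size than the largest of the members. The adjusted p-values of the members ranged from 0.772 to 1.00 (edgeR). In the 15 alternative analyses, which gave 150 values for the members, 0 passed the threshold, and the log2 differences stayed between −0.09 and 0.10 with a lowest adjusted p of 0.482.

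Summed reads on the genes listed as inhibitors and as subunits were likewise compared library by library, as a description with no test. Reads on the 5 inhibitors summed to 389, 399, 374 and 402 CPM in Ndrg3ctrl and 396, 402, 408 and 386 CPM in Ndrg3TKO. Reads on the 5 subunits summed to 789, 794, 732 and 741 CPM in Ndrg3ctrl and 785, 755, 792 and 738 CPM in Ndrg3TKO. The ratio of the first sum to the second was 0.493 to 0.542 in the controls and 0.505 to 0.532 in Ndrg3TKO, so the Ndrg3TKO ratios fell inside the control range. These sums are of reads, and the long genes weigh more in them. Nfkb1 alone had 332 to 366 CPM of the subunit sums. The ratio compares RNA of the 2 lists and does not measure a balance of inhibition.

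Levels of different genes can be compared only per length, and each level here is the CPM divided by the kilobases of annotated exons (GENCODE M21), averaged over the 8 libraries. On this scale Nfkbia was highest at 78.5 ± 4.15 CPM per kb (SD, n = 8), and its lowest library was above the highest library of Rela, at 32.4 ± 2.18. Nfkb1 (28.7 ± 1.08) and Nfkbid (28.3 ± 1.54) came next with overlapping ranges, and Nfkb1 was above Nfkbid in 4 of 8 libraries. Below them followed Nfkb2 (23.0 ± 1.10), Rel (20.2 ± 1.15), Bcl3 (19.0 ± 1.02), Nfkbie (17.7 ± 0.958), Relb (16.4 ± 0.781) and Tnfaip3 (13.9 ± 0.643). Of the 9 neighboring pairs in this order, the ranges over the 8 libraries were apart only between Nfkbia and Rela and between Nfkbid and Nfkb2.

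The order depended on which length was used. With the longest protein-coding transcript as the length, an alternative chosen after the data were seen, Nfkb1 moved from place 3 to place 1 at 84.0 CPM per kb, just above Nfkbia at 80.1, because its annotated exons add up to 12061 bases and its longest protein-coding transcript to 4117. Relb rose from place 9 to place 5 at 28.8 CPM per kb, and Rel, at 20.2 with both lengths, came last. Nfkbia held place 1 or 2 with both lengths and Rela place 2 or 3.

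**Figure D3:**
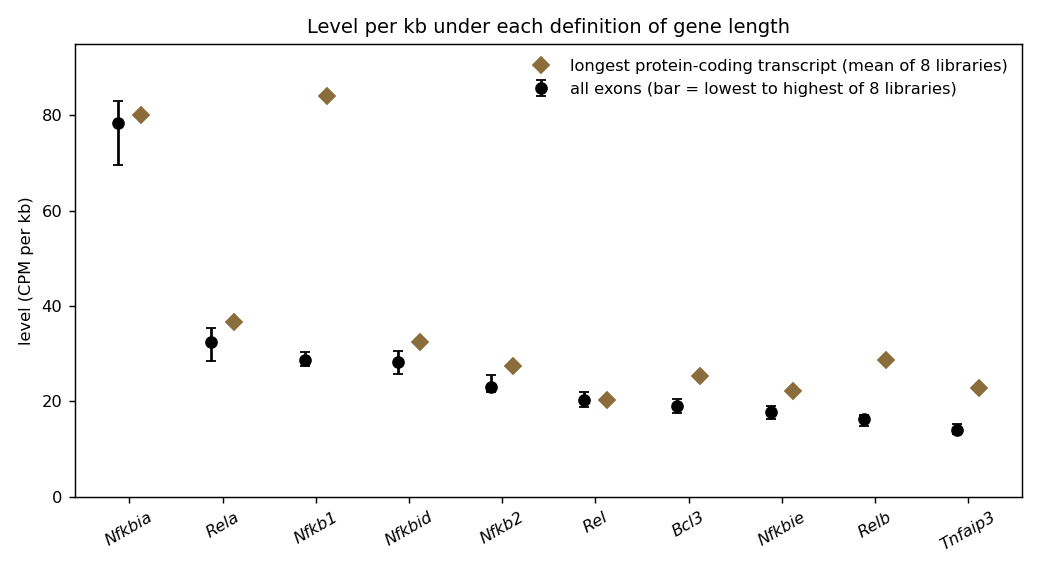
Level in CPM per kb (y axis, from 0) of the 10 members, ordered by the level over all annotated exons (black points, mean of 8 libraries, bars from the lowest to the highest library), with the level over the longest protein-coding transcript beside it (brown diamonds, mean of 8 libraries). Nfkb1 is at 28.7 by the first length and 84.0 by the second, while Nfkbia is at 78.5 and 80.1.

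Within the groups single libraries deviated from the group mean by −0.16 to 0.14 on the log2 scale. Log2 fold changes between the groups lay between −0.05 and 0.06. Coefficients of variation over the 8 libraries were 3.77% for Nfkb1 to 6.75% for Rela, where the counting of reads alone gives between 1.01% and 2.74%. Ndrg3ctrl replicate 3 was the lowest control for 6 of the 10 members and Ndrg3TKO replicate 4 the lowest Ndrg3TKO library for 6 of the 10, whereas Ndrg3ctrl replicate 2 was the highest control for 5. Once the mean of each group had been removed, 32 of the 45 pairs of members were positively correlated across the 8 libraries, with a median Pearson r of 0.246. Points share library depth and scaling, and the correlations are given as a description. The closest pairs were Nfkb1 with Tnfaip3 (r = 0.816), Nfkb1 with Rela (r = 0.794) and Nfkb2 with Rela (r = 0.782), and the most opposed was Bcl3 with Tnfaip3 (r = −0.763).

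**Figure D4:**
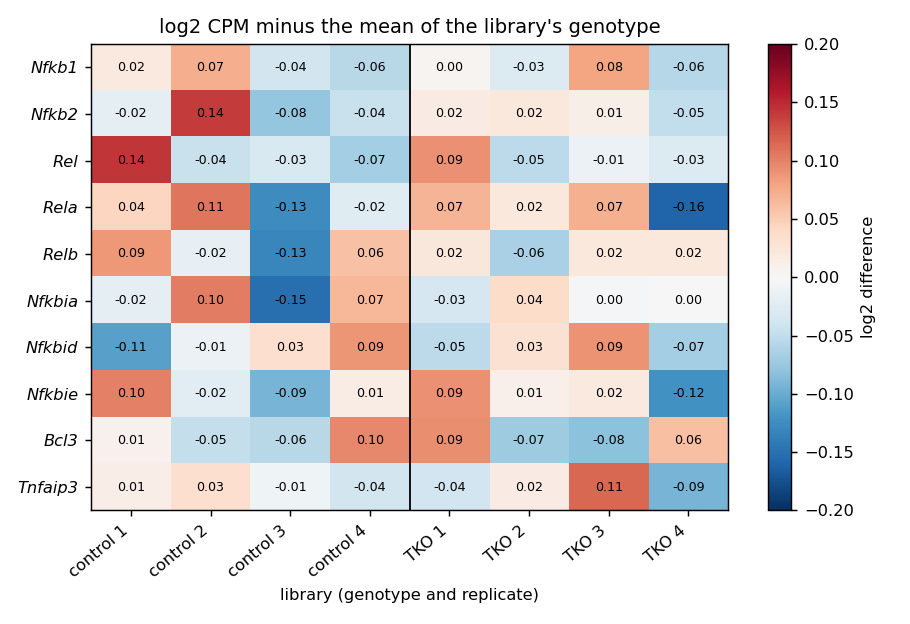
Deviation of each member (rows) in each library (columns, control and TKO with replicate number) from the mean of its genotype, in log2 CPM, with red above and blue below the mean. Lowest values are Rela in TKO 4 (−0.16) and Nfkbia in control 3 (−0.15), and the columns of control 3 and TKO 4 are mostly blue.

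For Nfkbid, the member with the smallest p, the genes of the pathway lists and members most like it over the 8 libraries with group means removed were Rnf31 (r = 0.918, Spearman's rho 0.786), Malt1 (r = 0.760, rho 0.619) and Il18r1 (r = 0.693, rho 0.643). Rnf31 encodes the catalytic subunit of the linear ubiquitin assembly complex, and Malt1 a protease of T cell receptor signaling. As measured, without removal of the means, Rnf31 (r = 0.806, rho 0.714), Cd27 (r = 0.682, rho 0.452) and Icam1 (r = 0.632, rho 0.429) were nearest. These are the highest values among the other members and the 71 tested list genes. With that many genes ranked over 8 libraries, high correlations can arise by selection alone, and shared regulation was not tested.

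The rest of the pathway was followed in 4 lists of 76 genes, of which 71 were tested. Among them 2 passed the test, both higher in Ndrg3TKO, a share of 2.82% beside 1.15% of all tested genes, and 9 had an unadjusted p under 0.05, beside 10.9% of all tested genes.

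Upstream kinases and adaptors, such as the IkappaB kinase subunits Ikbkb, Chuk and Ikbkg and the TAK1 kinase gene Map3k7, which acts above them, were all tested, and 0 of 21 passed. The median log2 difference was −0.01, beside −0.0033 over all tested genes, and the differences ran from −0.11 to 0.13. Those farthest from 0 were Tab1, a partner of the kinase TAK1 (0.13 ± 0.058, adjusted p = 0.444, edgeR), Rbck1, a subunit of the linear ubiquitin assembly complex (−0.11 ± 0.057, adjusted p = 0.540), and Ripk1, a kinase and scaffold below death receptors (−0.10 ± 0.049, adjusted p = 0.482). Tab1 was the 1 gene of this list with an unadjusted p under 0.05.

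Other inhibitors, among them the deubiquitinases Cyld, Otulin and Otud7b, were tested for 16 of 17 genes, and 0 passed, with 0 at an unadjusted p under 0.05. Tnip3 had too few reads to be tested. Their median difference was 0.00 on the log2 scale, and the genes farthest from 0 were Tnip2, which encodes an A20-binding protein (−0.13 ± 0.098, edgeR adjusted p = 0.687), Nfkbib, which encodes IkappaBbeta (−0.10 ± 0.085, adjusted p = 0.707), and Zc3h12a, which encodes the ribonuclease Regnase-1 (0.09 ± 0.056, adjusted p = 0.627).

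Of the receptors that signal to NF-kappaB, 10 of 12 were tested, and 1 of 10, Il18r1, passed, beside 1.15% of all tested genes. An unadjusted p under 0.05 was seen for 2 of 10, beside 10.9% of all tested genes (edgeR). Il18r1 (chr1:40465552-40500854, plus strand) encodes the ligand-binding chain of the interleukin-18 receptor. It was at 8.45, 8.60, 11.6 and 10.8 CPM in Ndrg3ctrl replicates 1 to 4 and at 18.4, 19.2, 18.1 and 15.7 CPM in Ndrg3TKO replicates 1 to 4. The groups did not overlap, and all 4 Ndrg3TKO libraries were above the control mean. Il18r1 rose by 0.85 ± 0.112 on the log2 scale (adjusted p = 0.00109, edgeR) and passed in all 15 alternatives, with adjusted p-values up to 0.00567. The accessory chain Il18rap had between 0.768 and 1.51 CPM in the 8 libraries and a log2 difference of −0.03 ± 0.259. Markers of NK and NKT cells, which also express the interleukin-18 receptor, summed to 0.475 to 1.47 CPM in Ndrg3ctrl and 1.96 to 2.58 CPM in Ndrg3TKO over 5 genes, of which Klrb1c passed the edgeR test (log2 difference 2.62 ± 0.358, adjusted p = 0.00149) and Ncr1 was at 0 in every library. Of the same list, Gzma was at 0.434 ± 0.146 CPM in Ndrg3ctrl and 0.423 ± 0.0916 CPM in Ndrg3TKO (SD), and Zbtb16, which had too few reads to be tested, ran the other way, at 0.335, 0.295, 0.203 and 0.146 CPM in Ndrg3ctrl and 0.0663, 0.0314, 0.0334 and 0.0921 CPM in Ndrg3TKO, the latter at or under the floor of 3 reads in each library. Their part in the value of Il18r1 was not tested, and in bulk RNA fewer cells of a type and less RNA per cell cannot be told apart. Tnfrsf25, named after its values were seen, was lower by −0.53 ± 0.136 with an adjusted p of 0.105 and did not pass (edgeR), and Ltbr and Il1r1 had too few reads to be tested.

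Known target genes in lymphocytes spread more widely than the members. Of 26 genes 24 were tested, with a median size of the log2 difference, without sign, of 0.17 beside 0.04 in the members and 0.09 over all tested genes. Their precision was lower than that of the members, with a median SE of 0.085 beside 0.057, but not lower than the 0.092 over all tested genes. Some had few reads. Of the 24, 1 passed, beside 1.15% of all tested genes, and 6 had an unadjusted p under 0.05, beside 10.9% of all tested genes (edgeR). Birc3 (chr9:7848699-7873186, minus strand) encodes cIAP2, a ubiquitin ligase that protects cells from death and acts in NF-kappaB signaling itself. It was at 84.2, 81.6, 84.7 and 83.6 CPM in Ndrg3ctrl and at 97.4, 91.9, 104 and 97.4 CPM in Ndrg3TKO. All 4 Ndrg3TKO libraries were above all controls. Birc3 rose by 0.22 ± 0.049 on the log2 scale (edgeR adjusted p = 0.0435), close to the threshold. The call was made in 7 of the 15 alternatives and was lost with limma-voom (adjusted p = 0.0602) and on leaving out any 1 library except Ndrg3TKO replicate 2, where the adjusted p-values of the 8 fits ran from 0.0326 to 0.167 and the difference from 0.19 to 0.25.

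Among the other targets, 5 had an unadjusted p under 0.05 and an adjusted p above the threshold in the edgeR fit, and they are named after their values were seen. Cd83, an activation marker, differed by 0.41 ± 0.125 (adjusted p = 0.183) without overlap of the groups, Il2ra, the alpha chain of the interleukin-2 receptor, by 0.62 ± 0.261 (adjusted p = 0.422) and Sod2, mitochondrial superoxide dismutase, by 0.14 ± 0.065 (adjusted p = 0.445). Ccr7, a chemokine receptor of mature thymocytes, differed by −0.26 ± 0.074 (adjusted p = 0.135) and Myc by −0.23 ± 0.098 (adjusted p = 0.428). Under other settings Tnfrsf25 passed with DESeq2 (adjusted p = 0.0147), Ccr7 and Tnfrsf25 with no filter on low counts (0.0223 and 0.0398), and Ccr7 and Myc with Y-linked expression as a covariate (0.0205 and 0.00577). With a replicate block in the edgeR fit, adjusted p-values were 0.00272 for Tnfrsf25, 0.00541 for Il2ra and 0.000607 for Ccr7. They were 0.0101 for Myc, 0.0475 for Cd83 and 0.126 for Sod2, which did not pass. In the same libraries, 4 markers of mature thymocytes summed to 1358 to 1632 CPM in Ndrg3ctrl and 1227 to 1410 CPM in Ndrg3TKO, and 7 markers of immature thymocytes to 587 to 662 CPM and 693 to 778 CPM. The immature sum was mostly reads on Ccr9 (means 495 CPM in Ndrg3ctrl and 559 CPM in Ndrg3TKO) and Cd69 (103 and 113 CPM). Of that list Dntt and Cd24a were also higher in Ndrg3TKO, and Rag1 (3.31 and 2.42 CPM) and Cd4 were lower. Rag2 had too few reads to be tested, and no tested gene of either list passed. Markers of CD4 and regulatory T cells (6 genes, of which Il2ra and Cd40lg are also in the target list) summed to 12.3 to 20.3 CPM in Ndrg3ctrl and 16.3 to 24.7 CPM in Ndrg3TKO. Of these, Foxp3, the regulatory T cell factor, had a log2 difference of 0.53 ± 0.193 (edgeR adjusted p = 0.293), above 0 as for Il2ra. Ctla4 (−0.09 ± 0.176), Cd40lg (−0.28 ± 0.243) and Cd4 (−0.30 ± 0.445) were below 0, and no tested gene of the list passed. Zbtb7b, with too few reads to be tested, averaged 0.216 CPM in Ndrg3ctrl and 0.104 CPM in Ndrg3TKO. The part of these marker levels in the values of the targets was not tested. The paralogs Bcl2a1b and Bcl2a1d, which share sequence, had between 0.637 and 1.62 CPM and are uncertain, Bcl2a1a was at 0 in every library and Ebi3 had too few reads to be tested.

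**Figure D5:**
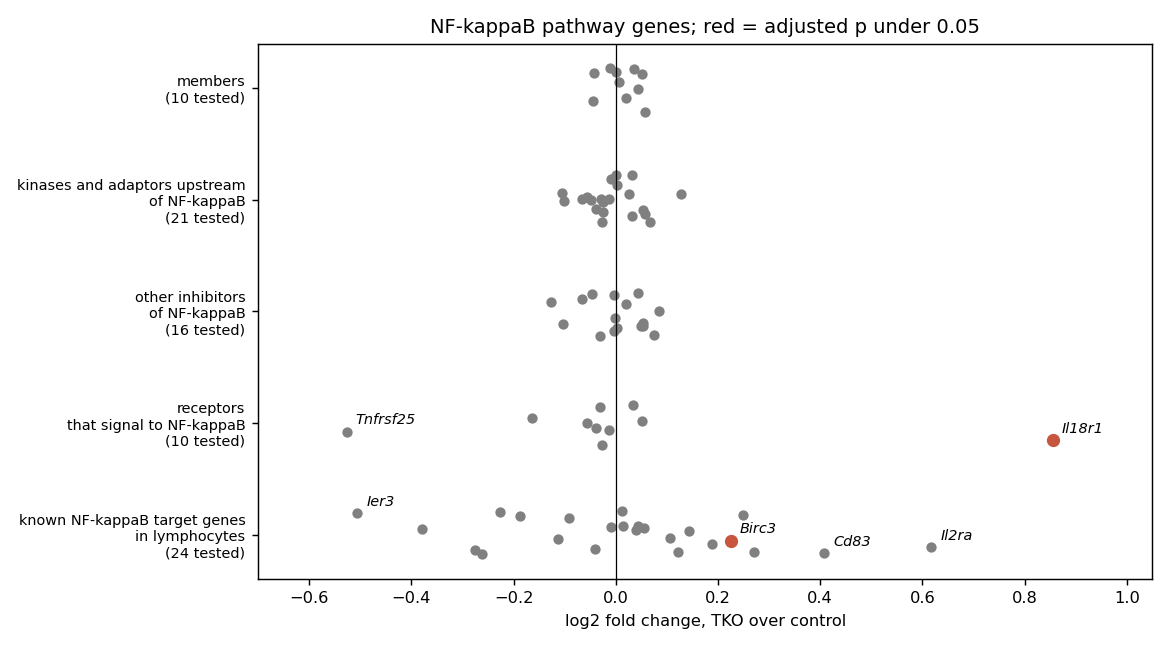
Log2 fold change of Ndrg3TKO over Ndrg3ctrl (x axis) for the tested genes of the members and of the 4 pathway lists (rows, with the number tested); red marks adjusted p under 0.05 in the edgeR fit, and genes beyond 0.4 in size are named. The members lie between −0.05 and 0.06, and the red points are Il18r1 at 0.85 and Birc3 at 0.22.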

How the data were processed

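The submitters' processing notes name cutadapt, STAR, featureCounts and the build GRCm38.p4. The table that the authors deposited gives raw, whole-number counts for 47937 genes, with no normalization. The library kit keeps strand, and the strand setting of the counting is not given in the sources used here, so overlapping genes may share reads. By Ensembl identifier, 98.5% of genes matched GENCODE M21 (GRCm38), which gave symbols, positions and lengths.

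Here low genes were removed (filterByExpr, by group), library totals were scaled (TMM) and groups were compared with edgeR 4.0.16 (glmQLFit, robust, and glmQLFTest; R 4.3.3) with Benjamini-Hochberg adjustment over 14633 genes and a threshold of 0.05. An SE is the size of the log2 fold change over the root of its F statistic, and intervals are 95%. The paper's methods name DESeq2, which was run as an alternative (1.42.0), beside limma-voom (3.58.1), other filters, a Y-linked covariate, a replicate block and leaving out each library. Libraries were grouped by their labels, and each of the 8 columns was used. The members and lists were chosen with earlier results of these data known. Genes named were the members, Ndrg3 and, from each other list, those past the threshold or else the 3 with the largest difference. Tnfrsf25, Cd83, Il2ra, Sod2, Ccr7, Myc and the marker genes given with values fall outside this rule and were named after their values were seen. Intervals and the floor of 3 reads cover counting error or spread between libraries only, since PCR copies were not told apart by molecular identifiers. Correlations use log2 CPM with a prior count of 2.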

Additional observations from a re-analysis of the deposited data

Results flagged for a closer look

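Among the 50 sets of 4 libraries examined (25 genes in each group), 5 held a library that stood apart from the other 3 by Dixon's criterion, where chance gives about 1 in 20, or 2.5. In Ndrg3TKO, replicate 4 was low for Nfkb2 at 102 CPM, and replicate 2 was low for Relb at 61.2 CPM and for Zc3h12a at 58.2 CPM. In Ndrg3ctrl, replicate 1 was high for Rel at 164 CPM, and replicate 2 was high for Nfkbib at 31.7 CPM. Nfkb2, Rel and Relb are members, and leaving out that library brought none of these 3 past the threshold (edgeR).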

How the results depend on the processing

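For the 10 members the count of genes past the threshold was 0 under all 15 alternatives. The sign of differences this close to 0 was not stable for Nfkb1 (−0.0118 with the Y-linked covariate) and Nfkbie (0.00079 with at least 10 counts in every library, 0.0014 with no filter on low counts). On leaving out 1 library, log2 differences ran from −0.0211 to 0.0285 for Nfkb1, −0.0374 to 0.0345 for Nfkb2, −0.0859 to 0.0052 for Rela, −0.0219 to 0.0513 for Relb, −0.0133 to 0.0673 for Nfkbia and −0.0319 to 0.0385 for Nfkbie. The number of all genes past the threshold, 168, became 309 with DESeq2, 412 with the Y-linked covariate, 274 with no filter and 90 to 158 on leaving out 1 library. The 2 calls in the 4 pathway lists became 4 with the Y-linked covariate, 1 with limma-voom, 4 with no filter and 1 to 2 on leaving out 1 library. Without the filter more genes were tested, and without a library fewer samples were compared. The cause of the other changes was not tested. The numbers 1 to 4 in both groups could mark pairs. After removal of group means, same-numbered libraries correlated at 0.189, 0.486, 0.0248 and 0.361 for replicates 1 to 4 over 13363 genes. Libraries of different numbers correlated at −0.358 to 0.147, and 6 of 8 libraries were nearest to their own number. Replicate 3 fell under the limit of 0.1 used here, so the main fit did not pair libraries. Whether the numbers mark pairs is not settled, and the number of calls outside the members depended on that choice. With a replicate block 800 of all genes, 7 of the pathway lists and 0 members passed, the 7 being Il18r1, Birc3, Tnfrsf25, Il2ra, Ccr7, Myc and Cd83. Level per kb moved with the length used, as described for Nfkb1 and Relb. With 4 libraries a group, a true difference anywhere inside the interval given for a gene remains possible.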

Other observations

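Other cell types were looked for with short marker lists, as values only. B cell markers (6 genes, mostly reads on Cd79b, with Ms4a1 at 0 in every library) summed to 11.2 to 13.3 CPM in Ndrg3ctrl and 8.72 to 9.52 CPM in Ndrg3TKO. Dendritic cell and macrophage markers (8 genes) summed to 5.80 to 7.31 CPM and 5.74 to 6.51 CPM. Thymic epithelial markers (5 genes, mostly reads on Epcam) summed to 1.68 to 3.05 CPM and 1.197 to 2.57 CPM. Gamma delta T cell markers (5 genes, mostly reads on Trdc) summed to 10.7 to 14.0 CPM and 10.6 to 14.4 CPM. Trdv4, of the gamma delta list, was at 0 in every library.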
